A study of Homo sapiens with 9 samples.

Results

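The genes described here encode MHC class I molecules and the machinery that supplies them with peptide. There are 9 of them among the 60612 genes of the deposited table, chosen by name with earlier results of these data known. They are the heavy chains HLA-B, HLA-C, HLA-E and HLA-F, the light chain B2M, the peptide transporter subunits TAP1 and TAP2, the chaperone tapasin (TAPBP) and the regulator NLRC5. They were followed in 9 RNA sequencing libraries of MV4-11, a human acute myeloid leukaemia cell line with an MLL fusion, all taken at 72 h and grouped by the title stems KO1, NC1 and NCO, 3 libraries each. By the characteristics, KO1 is wild type (WT) with vehicle, NC1 is WT with decitabine, a cytosine analogue that inhibits DNA methyltransferases, and NCO carries a CD36 knockdown and received decitabine. The labels do not say how the knockdown was made, whether it is a single clone, or whether the libraries of a group came from separate cultures, so p-values measure only the spread between these libraries.

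The stems and the characteristics do not match in their wording, and the targeted gene did not follow the label. CD36, a fatty acid receptor, was at 0.0997 to 0.144 FPKM in KO1, 1.78 to 2.52 in NC1 and 2.27 to 2.88 in NCO, so it was not lower in the libraries labelled as knockdown than in NC1. It was lowest in KO1, which the characteristics label as WT with vehicle. NC1 minus KO1 was 1.49 in log2(FPKM + 1), with a limma adjusted p of 1.43e-06. Whether the characteristics are assigned to the right libraries was not tested. Groups are therefore called by their stems, and a direction is a direction between stems. Values are FPKM (fragments scaled to transcript length and library size), and sums per library ranged from 493061 to 530097. Read counts were not used here, and the depth behind each value is unknown. Of that sum, mitochondrial genes took 14.9% ± 0.434 (SD, n = 3) for KO1, 16.5% ± 1.72 for NC1 and 18.1% ± 0.573 for NCO. The part of these shares in the results below was not tested beyond the rescaled values given beside them. Of 10 myeloid leukaemia markers 9 averaged at least 1 FPKM. Their sum was 522 to 539 FPKM in KO1, 452 to 473 in NC1 and 417 to 461 in NCO. CEBPA, a myeloid transcription factor, fell from 232 ± 10.5 FPKM in KO1 to 137 ± 15.2 in NC1, whereas in NC1 against KO1 4 of the 9 tested markers were higher and 2 lower, with CSF1R at 14.1 ± 1.19 and 26.3 ± 0.279. The marker under 1 FPKM, MEIS1, averaged 0.121 FPKM in KO1. Markers of dendritic cells, which also present antigen, summed to at most 0.584 FPKM in any library, with CLEC9A at 0 in all. Lymphoid markers summed to 66.0 to 70.5 FPKM in KO1, 73.1 to 82.4 in NC1 and 62.6 to 63.9 in NCO. Only 3 of those 10 averaged 1 FPKM or more, NKG7, NCAM1 and IL7R, and CD3D and CD3E were at 0 in all libraries. NKG7 followed the groups as HLA-B did, at 35.1 ± 2.19 FPKM (KO1), 47.9 ± 5.61 (NC1) and 33.5 ± 1.4 (NCO). The other markers of these 3 did not. NCAM1 was highest in KO1, at 31.7 ± 0.0837, 22.7 ± 1.32 and 23.5 ± 2.41 in the same order. IL7R was low in KO1 only, at 0.554 ± 0.201, 4.78 ± 0.39 and 5.28 ± 0.406. Erythroid and megakaryocytic markers summed to at most 1.49 FPKM in any library. Stromal and epithelial markers summed to 22.4 to 23.5 FPKM in KO1 and to 28.4 to 31.7 in the other groups. The part of marker genes in the results was not tested.

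MHC class I molecules show peptides from inside the cell to CD8 T cells and also act as ligands for receptors of natural killer and myeloid cells. A polymorphic heavy chain pairs with beta-2-microglobulin in the endoplasmic reticulum. The transporter TAP, a dimer of TAP1 and TAP2, pumps in peptides made by the proteasome, and tapasin bridges TAP to the empty heavy chain so that a well-fitting peptide can be loaded. NLRC5 is a nuclear coactivator that acts on an upstream promoter module which includes a CCAAT-like Y box and a cyclic AMP response element-like X2 box, and interferons induce many of these genes.

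The promoters of 5 genes are shown because HLA-B, HLA-C, B2M and TAPBP were higher in NC1 than in KO1 whereas TAP1 was not called. Each run is the 250 bases before the RefSeq start, 5′ to 3′ on the gene's strand in build GRCh38.p14: chr6:31357180-31357429 (minus strand), chr6:31272093-31272342 (minus), chr15:44711267-44711516 (plus), chr6:33314079-33314328 (minus) and the upstream of 2 starts of TAP1, chr6:32853705-32853954 (minus). Capitals mark any match, on either strand, to TTTCNNTTT (a pair of interferon response sites), CCAAT (the letters of a Y box), TGACG (the core of a cyclic AMP response element), GGGATTCC (a kappa B site) or TTCNNNGAA (a gamma activated site).
HLA-B: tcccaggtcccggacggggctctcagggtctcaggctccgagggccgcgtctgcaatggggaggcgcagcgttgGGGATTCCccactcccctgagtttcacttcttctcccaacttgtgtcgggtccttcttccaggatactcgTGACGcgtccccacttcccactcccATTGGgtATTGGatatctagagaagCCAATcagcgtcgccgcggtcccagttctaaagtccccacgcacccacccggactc
HLA-C: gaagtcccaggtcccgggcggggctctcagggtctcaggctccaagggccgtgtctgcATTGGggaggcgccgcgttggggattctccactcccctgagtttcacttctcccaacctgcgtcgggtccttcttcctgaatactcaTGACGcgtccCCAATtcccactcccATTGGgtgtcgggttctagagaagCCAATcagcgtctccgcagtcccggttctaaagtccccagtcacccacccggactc
B2M: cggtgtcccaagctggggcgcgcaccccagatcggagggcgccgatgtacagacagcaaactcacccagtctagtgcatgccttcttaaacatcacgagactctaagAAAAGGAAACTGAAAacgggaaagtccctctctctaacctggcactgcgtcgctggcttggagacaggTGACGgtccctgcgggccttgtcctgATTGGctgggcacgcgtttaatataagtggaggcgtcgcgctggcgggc
TAPBP: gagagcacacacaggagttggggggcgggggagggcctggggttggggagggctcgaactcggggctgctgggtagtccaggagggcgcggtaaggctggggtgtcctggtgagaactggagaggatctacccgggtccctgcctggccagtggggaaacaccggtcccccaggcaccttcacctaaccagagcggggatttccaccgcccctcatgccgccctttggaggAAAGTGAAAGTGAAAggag
TAP1: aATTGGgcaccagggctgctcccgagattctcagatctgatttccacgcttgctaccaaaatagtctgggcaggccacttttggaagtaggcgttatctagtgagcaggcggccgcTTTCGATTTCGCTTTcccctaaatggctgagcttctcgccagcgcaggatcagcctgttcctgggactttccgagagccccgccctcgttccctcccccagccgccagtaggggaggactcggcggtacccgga

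RefSeq promoters were matched for 7 of the 9 genes, and HLA-E and NLRC5 were not matched. The HLA-B and HLA-C promoters both held TGACG, 106 and 105 bases before the start, and CCAAT on both strands, in HLA-B at 81, 74 and 56 bases and in HLA-C at 192, 95, 80 and 56. The exact letters GGGATTCC were present in HLA-B, 176 bases before the start, and not in HLA-C. Other spellings of these motifs were not searched for, so a window without a match may still hold such a site. The HLA-B and HLA-C windows, without a match to TTTCNNTTT, both hold TTTCACTTC, which differs from it in the last letter only. B2M held TGACG at 75 bases, a CCAAT match at 49, and overlapping interferon response pairs at 143 and 137. Overlapping pairs of the same motif stood at 19 and 13 bases in TAPBP and at 134 and 128 in TAP1. No match overlapped a match of another motif. Over all 35116 promoters of the table, in windows of the same length, 9.2% held TTTCNNTTT, 32.0% CCAAT, 21.2% TGACG, 0.948% GGGATTCC and 6.57% TTCNNNGAA. CG dinucleotides, the site of DNA methylation, numbered 17 in the HLA-B window, 15 in HLA-C, 18 in B2M, 10 in TAPBP and 16 in TAP1, beside a median of 11 over all promoters. Methylation itself was not measured here. A match describes letters only.

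HLA-B and B2M were the most abundant of the 9 transcripts, as levels per length in FPKM. KO1 had HLA-B (682 ± 6.81, SD, n = 3) and B2M (634 ± 42.5) at the top, and the libraries of this pair overlapped. In NC1 and in NCO, B2M ranked above HLA-B without overlap. HLA-C, HLA-E, TAPBP, TAP1, TAP2 and NLRC5 followed in that order in all 3 groups, and no neighbours in that order overlapped. In the table's GRCh38 coordinates HLA-E lies on chromosome 6 at 30489509 to 30494194, HLA-F at 29722775 to 29738528, TAP1 at 32845209 to 32853978, TAP2 at 32821833 to 32838770 and TAPBP at 33299694 to 33314387. B2M lies on chromosome 15 at 44711487 to 44718877 and NLRC5 on chromosome 16 at 56989485 to 57083531. HLA-F was listed at 0 in 8 libraries and at 0.347 FPKM in NCO replicate 1. It fell under the filter of 1 FPKM in at least 3 libraries, so 8 of the 9 genes were tested.

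**Figure D1:**
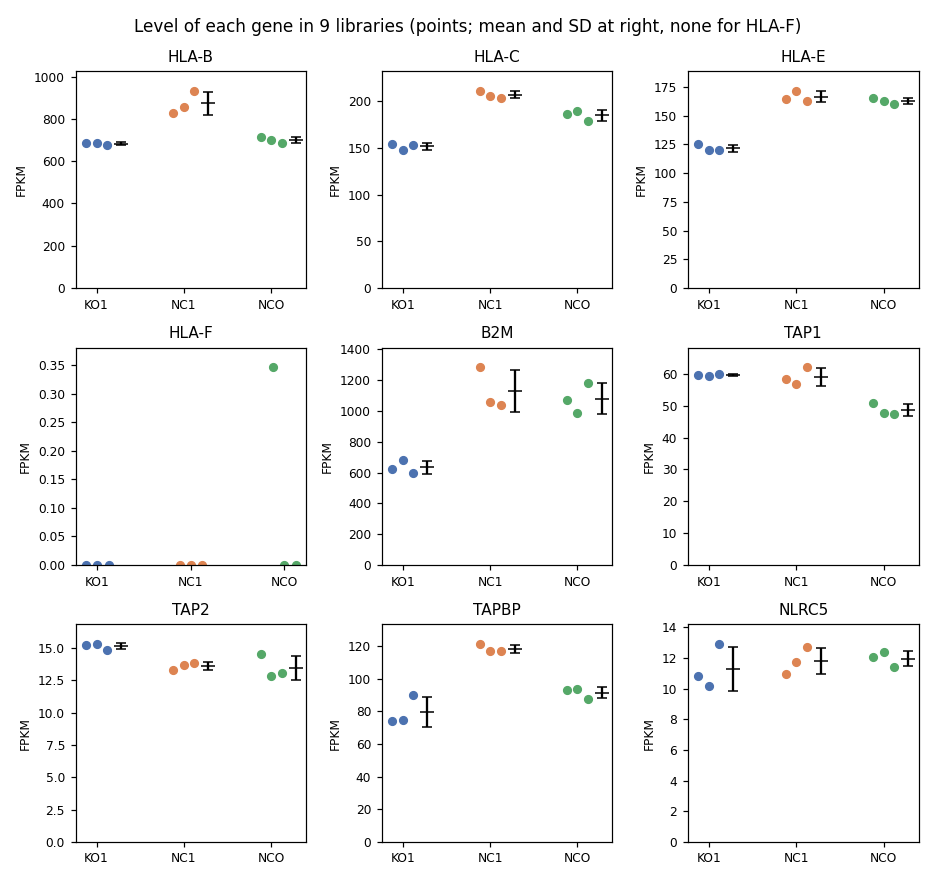
FPKM (vertical axes, each from 0) of the 9 genes in the 3 libraries of KO1, NC1 and NCO (points), with the group mean and SD as a bar at the right of each group except for HLA-F. HLA-C, HLA-E and B2M lie higher in NC1 and NCO than in KO1, whereas TAP1 lies lower in NCO, at 47.4 to 50.75, than in the other groups.

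By the characteristics, NC1 against KO1 is decitabine against vehicle in WT cells, although CD36 was lowest in KO1. This comparison gave higher HLA-B, HLA-C, HLA-E, B2M and TAPBP, and no call for either transporter subunit or NLRC5. Of the 8 genes tested 5 were higher and 0 lower, where 28.9% of all 12586 genes tested were called higher and 18.3% lower. Their median log2 difference was 0.40, beside 0.06 over all genes tested. By the characteristics, NCO against NC1 is the knockdown against WT under the drug, although CD36 was not lower in NCO. It gave 4 lower and 0 higher of the 8, where 8.62% of all genes were called lower and 6.12% higher. The median of the 8 was -0.11, beside 0.01. In NCO against KO1, 4 were higher and 2 lower, where 32.1% of all genes were called higher and 20.1% lower, with a median of 0.14 beside 0.08. Each pair of these comparisons shares a group, so they are not independent of each other. The genes were chosen with earlier results of these data known, so their counts beside all genes are descriptive and do not test the set. Calls are at an adjusted p under 0.05 in limma over all genes tested, and differences are in log2(FPKM + 1). The balance over all genes rested on scaling. In NC1 against KO1 3637 genes were called higher and 2300 lower, but 2736 and 3078 after quantile normalization, 3115 and 2970 after trimmed-mean scaling, and 4519 and 1742 with mitochondrial genes removed. NCO against NC1 gave 770 higher and 1085 lower, but 1072 and 922 after quantile normalization, and 1730 and 748 once mitochondrial genes were removed. NCO against KO1 gave 4041 higher and 2527 lower, and in the order of NC1 against KO1 3027 and 3080, 3313 and 3242, and 5786 and 1618. Among the 8 genes, quantile normalization and trimmed-mean scaling added 1 lower gene, TAP2, to the 5 higher of NC1 against KO1. The split in NCO against KO1 was 5 higher and 1 lower with mitochondrial genes removed. There TAPBP lost its call after trimmed-mean scaling (limma adjusted p = 0.153), and HLA-B was called higher after quantile normalization (limma adjusted p = 0.000633). In NCO against NC1 HLA-C lost its call after quantile normalization (limma adjusted p = 0.855) and with mitochondrial genes removed (limma adjusted p = 0.148).

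**Figure D2:**
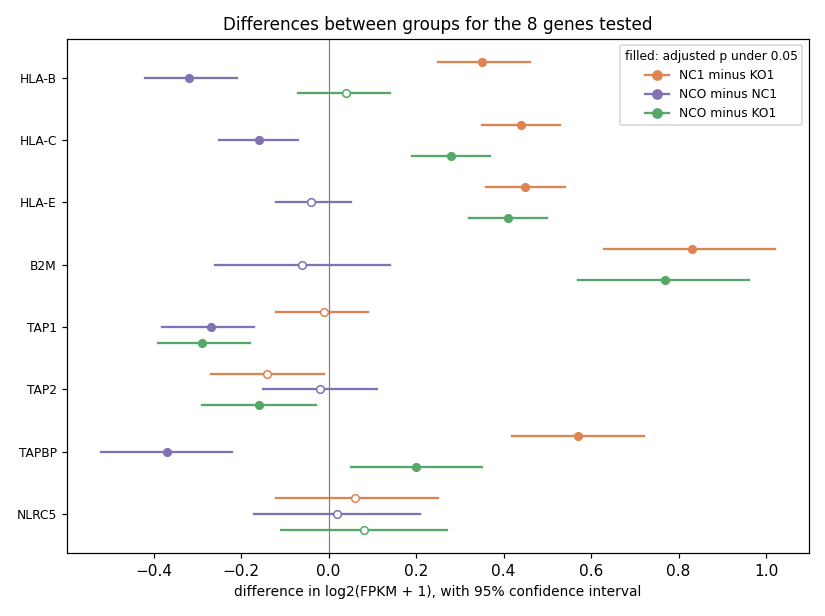
Difference in log2(FPKM + 1) between groups (horizontal axis), with its 95% confidence interval, for the 8 genes tested. Filled points have an adjusted p under 0.05 in limma. B2M has the largest difference of the 8 in NC1 minus KO1, at 0.83, and the intervals of NLRC5 span 0 in all 3 comparisons.

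HLA-B presents peptides to CD8 T cells and was the most abundant heavy chain of the 4. Its level was 688, 684 and 675 FPKM in the KO1 libraries, 830, 855 and 934 in those of NC1, and 716, 700.0 and 684.5 in those of NCO. Every NC1 library lay above all others, and KO1 overlapped with NCO. In log2(FPKM + 1), NC1 minus KO1 was 0.35 with a 95% confidence interval of 0.25 to 0.46. The ratio of means was 1.28, with a limma adjusted p of 0.000137. NCO was lower than NC1 by -0.32 (-0.42 to -0.21), a ratio of 0.802, with a limma adjusted p of 0.00273, and by -0.19 after quantile normalization (limma adjusted p = 0.0211). Against KO1 the difference was 0.04 (-0.07 to 0.14), with a limma adjusted p of 0.54. The value against KO1 rested on scaling as well. Quantile normalization gave 0.27 (limma adjusted p = 0.000633) and removal of mitochondrial genes 0.18 (limma adjusted p = 0.00285), both called higher, and -0.04 after trimmed-mean scaling (not called).

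HLA-C, a second classical heavy chain that natural killer cell receptors read as well, stood at 154, 147.5 and 153 FPKM in the KO1 libraries, 211, 206 and 203 in those of NC1, and 186, 189 and 178 in those of NCO. The 3 groups did not overlap, with NCO between KO1 and NC1. The log2 difference was 0.44 (0.35 to 0.53) for NC1 against KO1, with a limma adjusted p of 6.84e-06, and 0.28 (0.19 to 0.37) for NCO against KO1, with a limma adjusted p of 0.000196. NCO was below NC1 by -0.16 (-0.25 to -0.07; limma adjusted p = 0.0234), a call that was lost in 9 of 17 alternatives. Among these it was lost without NC1 replicate 1 (limma adjusted p = 0.0729), NC1 replicate 2 (0.0547), NCO replicate 1 (0.058) or NCO replicate 3 (0.0679), and after quantile normalization, where the difference was -0.01.

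HLA-E is a less variable heavy chain that shows leader peptides of other class I chains to the receptor CD94 with NKG2A. It was at 125, 119.9 and 119.9 FPKM in the KO1 libraries, 165, 172 and 162.5 in those of NC1, and 165, 162 and 159.7 in those of NCO. Both NC1 and NCO lay above KO1 in every library and overlapped with each other. NC1 exceeded KO1 by 0.45 (0.36 to 0.54), with a limma adjusted p of 5.84e-06, and NCO exceeded KO1 by 0.41 (0.32 to 0.50), with a limma adjusted p of 1.09e-05. NCO against NC1 gave -0.04 (-0.12 to 0.05; limma adjusted p = 0.591), and was 0.10 once libraries were quantile normalized and 0.03 with mitochondrial genes removed.

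B2M, the light chain shared by all class I molecules and by relatives such as CD1D and the neonatal Fc receptor, was at 622, 681 and 598 FPKM in the KO1 libraries, 1283, 1061 and 1039.9 in those of NC1, and 1071, 984 and 1184 in those of NCO. KO1 lay below all other libraries, and NC1 and NCO overlapped. The ratio of means was 1.78 for NC1 against KO1, a log2 difference of 0.83 (0.63 to 1.02) with a limma adjusted p of 3.24e-05. For NCO against KO1 it was 1.70, a difference of 0.77 (0.57 to 0.96) with a limma adjusted p of 5.45e-05. NCO minus NC1 was -0.06 (-0.26 to 0.14; limma adjusted p = 0.689), and the sign changed to 0.05 under quantile normalization and to 0.01 without mitochondrial genes.

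TAP1, which forms the transporter with TAP2, departed from the tested heavy chains in both comparisons with KO1. From NC1 to NCO it was called lower, as were HLA-B and HLA-C but not HLA-E. Its level was 59.5, 59.3 and 59.9 FPKM in the KO1 libraries, 58.2, 56.8 and 62.0 in those of NC1, and 50.75, 47.6 and 47.4 in those of NCO. KO1 and NC1 overlapped, and each NCO library lay below all 6 of theirs. NC1 minus KO1 was -0.01 (-0.12 to 0.09; limma adjusted p = 0.824), and 0.06 with mitochondrial genes removed. NCO was lower than NC1 by -0.27 (-0.38 to -0.17), with a limma adjusted p of 0.00473. It was also lower than KO1, by -0.29 (-0.39 to -0.18), a ratio of 0.816, with a limma adjusted p of 0.000464. Both calls of NCO held in all 17 alternatives, with a smaller difference from KO1 of -0.15 when mitochondrial genes were removed (limma adjusted p = 0.0126). The TAP1 row of the table lies wholly inside that of PSMB9, an immunoproteasome subunit on the opposite strand. Another row on the opposite strand, PSMB8-AS1, overlaps that of TAP1 by 1292 bases and averaged 26.4 FPKM. The labels do not say whether strand was kept, so how reads were split where these rows overlap is uncertain. Rows include introns, and overlap of exons was not examined. PSMB9 itself was at 71.9 ± 3.08 FPKM (KO1), 119.5 ± 8.79 (NC1) and 88.6 ± 3.03 (NCO) (SD, n = 3), unlike TAP1 between KO1 and NC1.

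TAP2 was at 15.2, 15.3 and 14.9 FPKM in the KO1 libraries, 13.3, 13.7 and 13.9 in those of NC1, and 14.5, 12.9 and 13.05 in those of NCO. KO1 lay above all other libraries, and NC1 and NCO overlapped. The difference of NC1 from KO1 was -0.14 (-0.27 to -0.01), with a limma adjusted p of 0.0659, and TAP2 was called lower after quantile normalization (limma adjusted p = 0.0171), after trimmed-mean scaling (0.0082) and without NCO replicate 1 (0.0448). NCO against KO1 was called at -0.16 (-0.29 to -0.03; limma adjusted p = 0.04). That call was lost in 10 of 17 alternatives, including the replicate block (limma adjusted p = 0.0674) and the removal of any of the 3 KO1 libraries (0.0641 to 0.099), of NC1 replicate 1 (0.0511) or of NCO replicate 2 or 3 (0.141 and 0.101). With mitochondrial genes removed it was -0.03. NCO minus NC1 was -0.02 (-0.15 to 0.11; limma adjusted p = 0.879), and 0.05 with mitochondrial genes removed. In the GENCODE 29 transcripts, 79.8% of the 100-base stretches of the principal TAP2 transcript also occur in AL669918.1, a coding gene on the same strand whose row covers all of TAP2. That row averaged 0.216 FPKM.

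TAPBP, tapasin, was at 74.2, 74.4 and 89.9 FPKM in the KO1 libraries, 121, 117 and 117 in those of NC1, and 93.0, 93.5 and 87.5 in those of NCO. NC1 lay above all other libraries, and KO1 replicate 3 stood apart from its group and inside the range of NCO. NC1 stood higher than KO1 by 0.57 (0.42 to 0.72), at a ratio of means of 1.49, and had a limma adjusted p of 4.82e-05. NCO was below NC1 by -0.37 (-0.52 to -0.22), with a limma adjusted p of 0.00647, and by -0.24 after quantile normalization (limma adjusted p = 0.0408). NCO exceeded KO1 by 0.20 (0.05 to 0.35; limma adjusted p = 0.0269). That last call was lost in 7 of 17 alternatives, among them leaving out KO1 replicate 1 (limma adjusted p = 0.107) or 2 (0.104) or NCO replicate 1 (0.0773) or 2 (0.0806), and trimmed-mean scaling (0.153). With mitochondrial genes removed the difference was 0.34 (limma adjusted p = 0.00269).

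NLRC5, the class I coactivator, was at 10.8, 10.2 and 12.9 FPKM in the KO1 libraries, 10.95, 11.8 and 12.7 in those of NC1, and 12.04, 12.4 and 11.4 in those of NCO. All 3 groups overlapped. The differences were 0.06 (-0.12 to 0.25; limma adjusted p = 0.572) for NC1 against KO1, 0.02 (-0.17 to 0.21; limma adjusted p = 0.906) for NCO against NC1 and 0.08 (-0.11 to 0.27; limma adjusted p = 0.439) for NCO against KO1. None of the 17 alternatives called NLRC5 in any comparison. With mitochondrial genes removed NCO minus KO1 was 0.21 (limma adjusted p = 0.0557), close to the threshold. The intervals do not exclude a modest change in either direction.

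HLA-F, a heavy chain that is found largely in open form on activated cells, gave no test. A value of 0 in an FPKM table can be a failed estimate, and 2 genes of the table were at 0 in 1 library and at 10 FPKM or more in another of the same group. HLA-F is therefore only said to be listed at 0. Its antisense partner HLA-F-AS1, whose row overlaps it by 11928 bases, averaged 1.05 FPKM.

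Heavy chains are near copies of each other, and their rows also touch. The row of HLA-B spans 87698 bases (chromosome 6, 31269491 to 31357188, GRCh38) and covers 2640 of the 3382 bases of HLA-C (31268749 to 31272130) on the same strand, both in the table and in GENCODE 29. Exact stretches of 100 bases were rarely shared in the GENCODE 29 transcripts. None of those of the principal HLA-B transcript occurred in a transcript of another gene, against 0.278% for HLA-C and 0.6% for HLA-E. These shares hold for the reference alleles, and those of MV4-11 were not analysed here, so how reads were split between heavy chains is uncertain. The pseudogene HLA-H, at 33.7 ± 4.81 FPKM (KO1), 43.1 ± 4.45 (NC1) and 30.45 ± 3.62 (NCO) (SD, n = 3), moved in the same directions as HLA-B. It was called higher in NC1 than in KO1 (limma adjusted p = 0.0262) and lower in NCO than in NC1 (0.0181). Each call was lost in 5 of 17 alternatives. The first ended without KO1 replicate 2 (0.0862) or 3 (0.0971) or NC1 replicate 1 (0.0888) or 3 (0.0825), and the second without NC1 replicate 1 (0.0574) or 3 (0.0542) or NCO replicate 2 (0.0698) or 3 (0.0514). A limit shared by all genes here is that in bulk libraries fewer cells with an RNA and less of it per cell cannot be told apart.

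The balance between components was compared as sums, shares and ratios within each library. The sum of HLA-B, HLA-C, HLA-E and HLA-F, which is not the sum of every heavy chain of the table, was 956 ± 10.4 FPKM (KO1), 1246 ± 48.5 (NC1) and 1047 ± 22.6 (NCO) (SD, n = 3), without overlap between groups. Within it the HLA-B share was 71.4% ± 0.422 (KO1), 70.0% ± 1.61 (NC1) and 66.9% ± 0.27 (NCO). HLA-E made up 12.7% ± 0.177, 13.4% ± 0.763 and 15.5% ± 0.0974 in the same order, and HLA-C 15.9% ± 0.338, 16.6% ± 0.931 and 17.6% ± 0.324. NCO thus had a lower HLA-B share and a higher HLA-E share than every library of KO1 and NC1, with an exact two-sided permutation p of 0.1 in each of these comparisons. That is the smallest p that 3 libraries against 3 allow. Shares of the same sum are tied to each other, so they are not separate results. HLA-E itself was not called in NCO against NC1 (-0.04, limma adjusted p = 0.591), whereas HLA-B was called lower (-0.32, limma adjusted p = 0.00273). B2M per unit of the heavy chain sum was 0.663 ± 0.0458 (KO1), 0.908 ± 0.138 (NC1) and 1.03 ± 0.114 (NCO), with KO1 below all other libraries (exact permutation p = 0.1 against NC1 and against NCO) and overlap of NC1 with NCO (exact permutation p = 0.3). TAP1 per TAP2 was 3.93 ± 0.0796, 4.33 ± 0.171 and 3.61 ± 0.107 in KO1, NC1 and NCO, without overlap (exact permutation p = 0.1 for each pair of groups). TAPBP per TAP1 was 1.33 ± 0.144 (KO1), 2.01 ± 0.106 (NC1) and 1.88 ± 0.0718 (NCO), with KO1 below all others and NC1 overlapping with NCO (exact permutation p = 0.1, 0.1 and 0.2 for NC1 against KO1, NCO against KO1 and NCO against NC1). With 3 against 3 none of these ratios can pass a threshold of 0.05, and the lowest p adjusted over the 24 tests was 0.16.

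**Figure D3:**
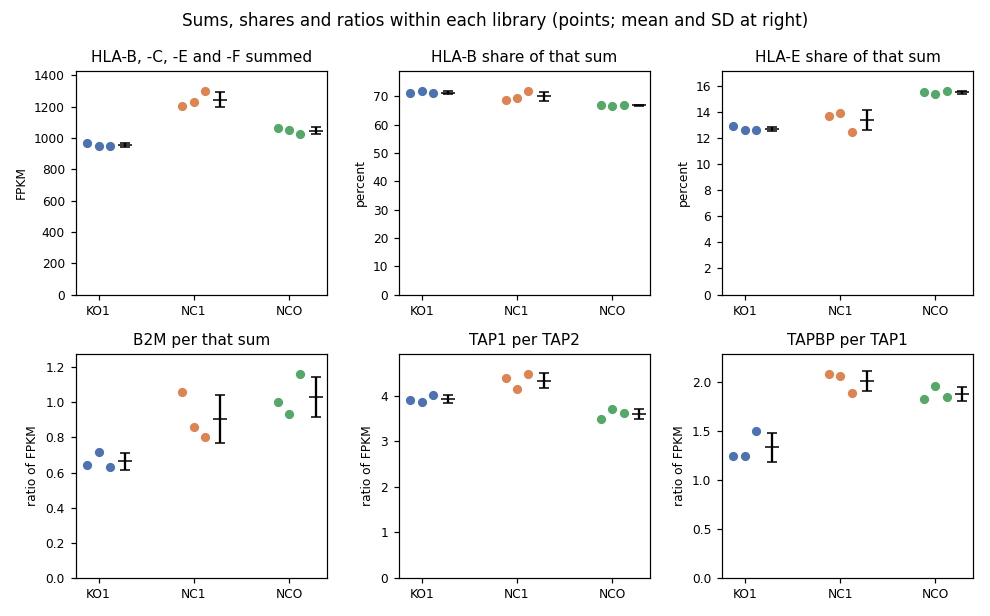
Sum of 4 heavy chains in FPKM, the HLA-B and HLA-E shares of it in percent, and ratios of FPKM between components (vertical axes from 0) in the 3 libraries of each group (points), with mean and SD at right. The HLA-E share is 15.4% to 15.6% in NCO and 12.5% to 13.9% elsewhere, and B2M per heavy chain sum is 0.631 to 0.716 in KO1 and at least 0.8 in the other groups.

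Other parts of the pathway were read from lists, whose counts stand beside the shares of all genes given above. The lists too were chosen with earlier results known, so their counts are descriptive. Among 14 genes of peptide loading and trimming, all tested, 5 were higher and 3 lower in NC1 than in KO1 (median 0.04), where 28.9% and 18.3% of all genes were, and 6 and 2 with mitochondrial genes removed. Calreticulin (CALR), a lectin chaperone of the loading complex, was at 485.5 ± 14.3 FPKM (KO1), 1104 ± 13.0 (NC1) and 904 ± 14.9 (NCO) (SD, n = 3), and its fall from NC1 to NCO had a limma adjusted p of 0.0017. The disulfide isomerase PDIA3, which is bound to tapasin in the loading complex, was at 80.3 ± 0.994, 180 ± 2.90 and 174 ± 2.87, higher than KO1 in both (log2 difference 1.15 and 1.11). NRDC, a cytosolic peptidase, fell by 0.32 in NC1 against KO1, and BCAP31, an export receptor for class I, fell by 0.22. In NCO against NC1 the list gave 1 higher and 2 lower (median 0.08), where 6.12% and 8.62% of all genes were. The split was 3 and 1 under quantile normalization, and 4 and 1 without mitochondrial genes. The higher gene, CANX, a membrane-bound lectin chaperone, lost its call without NC1 replicate 1 or 2 or NCO replicate 1 or 2 (limma adjusted p = 0.0584 to 0.0906), and the lower BCAP31 without NC1 replicate 1 or NCO replicate 1 or 3 (0.0514 to 0.0558). In NCO against KO1 6 were higher and 3 lower (median 0.14), where 32.1% and 20.1% of all genes were. The split was 4 and 4 after trimmed-mean scaling and 8 and 1 with mitochondrial genes removed. Among the higher genes was the trimming peptidase ERAP2 (0.386 ± 0.0919 FPKM in KO1 and 1.115 ± 0.191 in NCO). No KO1 library of ERAP2 reached 1 FPKM, so it passed the filter only through NC1 and NCO libraries. A gene that low in all groups could not enter these counts.

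All 5 genes of the immunoproteasome and its activator were lower in NCO than in NC1 (median -0.40), where 8.62% of all genes were. PSME1, an activator subunit, lost its call without the filter (limma adjusted p = 0.0878), after quantile normalization (0.0843) and without NCO replicate 1 (0.0713) or 2 (0.0661), which left 4. PSME2, its partner in the activator, had the smallest adjusted p (132 ± 3.81 and 99.6 ± 1.82 FPKM; limma adjusted p = 0.000841). PSMB10 was at 150 ± 12.2 and 112.5 ± 3.07, and PSMB8 at 186 ± 4.84 and 154.5 ± 0.823. In NC1 against KO1 2 of the 5 were higher, PSMB9 and PSME2, and 1 was lower, PSMB8, from 209 ± 5.14 (median 0.16). Of all genes 28.9% were higher and 18.3% lower in that comparison. The split of the 5 was 4 and 1 with mitochondrial genes removed. In NCO against KO1 1 was higher and 2 lower (median -0.11), where 32.1% and 20.1% of all genes were, and 1 and 4 after trimmed-mean scaling.

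Transcriptional control, 27 genes, gave 7 higher and 5 lower in NC1 against KO1 (median 0.05), 3 and 5 in NCO against NC1 (median 0.01) and 9 and 5 in NCO against KO1 (median 0.01), against 28.9% and 18.3%, 6.12% and 8.62%, and 32.1% and 20.1% of all genes. With mitochondrial genes removed the splits were 11 and 4, 5 and 3, and 12 and 3, and after quantile normalization that of NCO against NC1 was 6 and 3. The 8 calls of NCO against NC1 became 5 without NC1 replicate 2, NCO replicate 1 or NCO replicate 2. Some interferon signalling factors were among the higher calls in NC1 against KO1. In the same comparison IRF8 was called lower (-0.28, limma adjusted p = 0.000481), and IRF2, IRF3, IRF9, JAK1 and TYK2 were not called. The kinase JAK2 was at 1.35 ± 0.0608 FPKM (KO1), 3.905 ± 0.296 (NC1) and 5.55 ± 0.31 (NCO) (SD, n = 3), with every step called. IRF1, a factor that binds interferon response elements, was at 14.1 ± 1.97, 25.8 ± 0.669 and 25.6 ± 0.828. IRF7 was at 16.9 ± 0.47, 30.45 ± 1.96 and 18.6 ± 1.46. The fall of IRF7 from NC1 to NCO was -0.69 (limma adjusted p = 0.000338), and that of IRF3 -0.30 (limma adjusted p = 0.00588). Of the RFX complex, which binds the X box of MHC promoters with NLRC5 or CIITA, RFX5 was at 35.85 ± 1.43, 27.2 ± 0.816 and 34.15 ± 2.0, and RFXANK at 144 ± 6.17, 117 ± 3.65 and 103 ± 3.02, lower in NCO than in KO1 by -0.49. CREB1, which binds cyclic AMP response elements, was at 2.355 ± 0.17, 4.23 ± 0.439 and 4.83 ± 0.191.

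**Figure D4:**
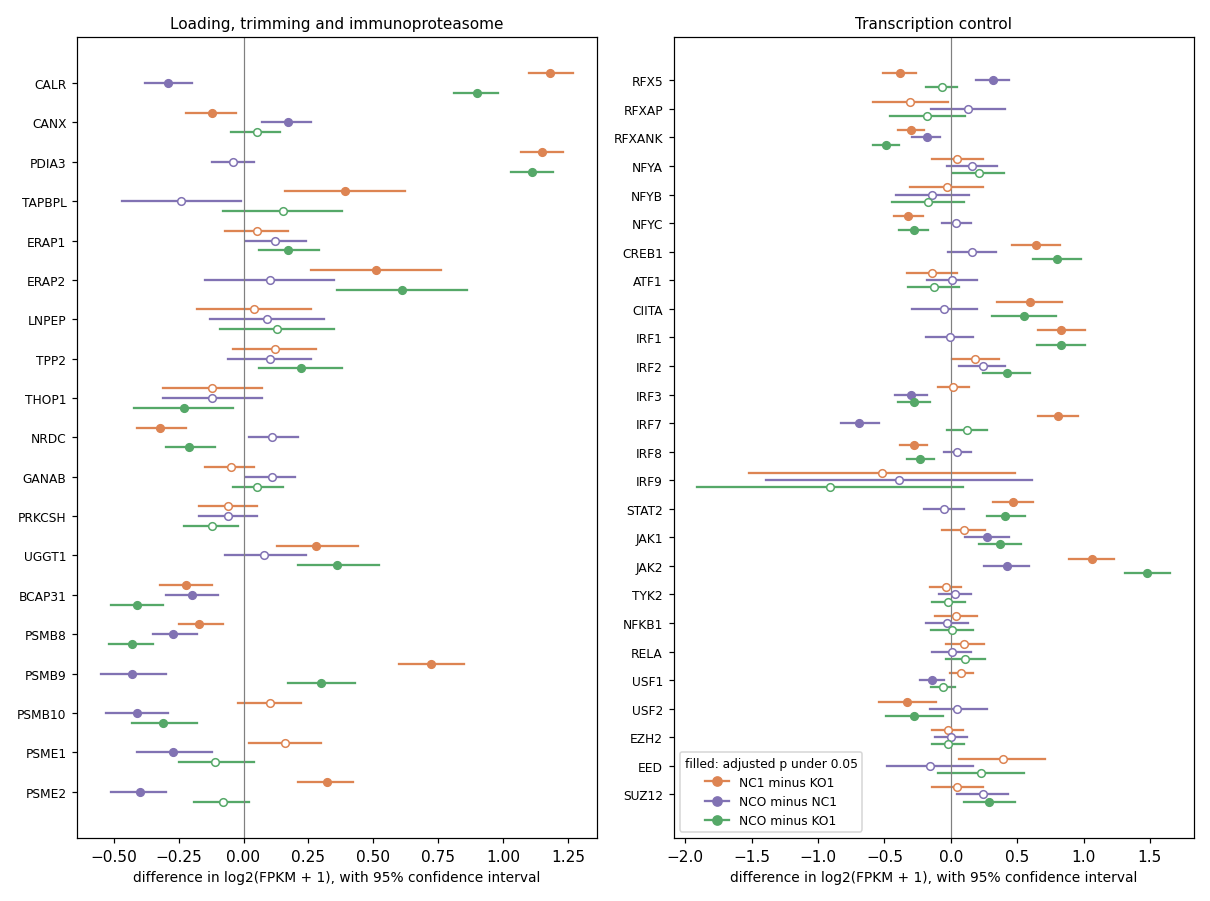
Difference in log2(FPKM + 1) with its 95% confidence interval (horizontal axes, on different scales) for genes of loading, trimming and the immunoproteasome (left) and for most genes of the transcription control list (right), in the 3 comparisons. Filled points have an adjusted p under 0.05 in limma. CALR and PDIA3 lie above 0.8 in both comparisons with KO1, and the 5 immunoproteasome and activator genes all lie below 0 in NCO minus NC1.

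Turnover and quality control of class I gave 1 higher and 4 lower of 12 tested in NC1 against KO1 (median -0.03), where 28.9% and 18.3% of all genes were. The split was 0 and 5 after trimmed-mean scaling and 2 and 1 with mitochondrial genes removed. The 5 calls became 1 without KO1 replicate 2 or NC1 replicate 2, 2 without KO1 replicate 1 and 3 without NC1 replicate 1. SYVN1, UBE2J1 and UBE2G2, which act in the disposal of misfolded proteins, lost their calls in 5, 5 and 4 of 17 alternatives. NCO against NC1 gave 1 higher, UBE2G2, whose call was lost in 12 of 17 alternatives, among them leaving out any of the 6 libraries of the pair (limma adjusted p = 0.0593 to 0.131), and 0 lower (median 0.00). That split was 1 and 1 after quantile normalization and 0 and 1 after trimmed-mean scaling. Of all genes 6.12% were higher and 8.62% lower in that comparison. NCO against KO1 gave 2 higher and 4 lower (median 0.01), where 32.1% and 20.1% of all genes were. The split was 0 and 5 after trimmed-mean scaling and 5 and 2 with mitochondrial genes removed. This comparison gave 3 calls without KO1 replicate 1 or 2 or NCO replicate 1 or 2. Its lower genes included the ligase MARCHF9 at 11.9 ± 0.537 FPKM in KO1 and 8.39 ± 1.27 in NCO (SD, n = 3). SUSD6 and TMEM127, which form a complex that removes class I from the surface, were called in no comparison.

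Of 19 other class I-like genes 9 were tested, and 4 were higher in NC1 than in KO1 and 0 lower (median 0.24), where 28.9% and 18.3% of all genes were. ULBP2, an NKG2D ligand among the 4, lost its call in 7 of 17 alternatives, including those without KO1 replicate 1 or 3 or NC1 replicate 1 or 2 (limma adjusted p = 0.0655 to 0.104). CD1D, which presents lipids, was at 2.68 ± 0.0932 FPKM (KO1), 4.90 ± 0.232 (NC1) and 3.69 ± 0.287 (NCO) (SD, n = 3). Its fall from NC1 to NCO, the single call of that comparison, ended without NC1 replicate 1 (limma adjusted p = 0.0509). The split of that comparison was 1 higher and 1 lower under quantile normalization, and 2 and 1 without mitochondrial genes. Of all genes 6.12% were higher and 8.62% lower in it. The NKG2D ligands MICB (5.13 ± 0.488, 7.225 ± 0.595 and 7.06 ± 0.54) and ULBP3 (0.455 ± 0.0754, 1.25 ± 0.191 and 1.41 ± 0.173) were higher in both groups than in KO1. ULBP3 passed the filter only through NC1 and NCO libraries, so its calls against KO1 rest on that entry. In NCO against KO1 6 were higher and 0 lower (median 0.26), where 32.1% and 20.1% of all genes were, and 3 and 1 after trimmed-mean scaling. Among class I pseudogenes and transcripts of the class I region 3 of 13 were tested. In NCO against KO1 0 were called, where 32.1% of all genes were higher and 20.1% lower. Of 16 receptors for class I, 15 were in the table and 5 were tested, with 3 higher in NC1 against KO1, 0 called in NCO against NC1, and 4 higher in NCO against KO1, where 28.9%, 6.12% and 32.1% of all genes were higher. LILRA1, an activating receptor among the 4, lost its call in 7 of 17 alternatives, including those without KO1 replicate 2 or 3 or NCO replicate 1 or 2 (limma adjusted p = 0.0879 to 0.129). The inhibitory receptor LILRB1 was at 2.57 ± 0.329, 5.50 ± 0.363 and 5.46 ± 0.428. KLRD1, CD8A and CD8B, receptor genes of natural killer and T cells, were at 0 in all 9 libraries.

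The genes closest in profile were found by the root mean square difference between centred log2(FPKM + 1) values over the same 9 libraries, among tested genes with a mean of at least 5 FPKM. Nearest to the mean profile of the 8 tested genes were MYCL (0.03), ALDH1B1 (0.035), FKBP4 (0.036), CES1 (0.037) and ANXA11 (0.037). MYCL was at 27.99 ± 1.06 FPKM (KO1), 34.75 ± 0.36 (NC1) and 32.2 ± 0.114 (NCO) (SD, n = 3). Nearest to HLA-B were GM2A (0.034), POLD4 (0.038), ATP5IF1 (0.039), SLC66A1 (0.039) and TRMT112 (0.042). GM2A was at 28.3 ± 1.05, 35.7 ± 1.64 and 28.3 ± 0.834, high in NC1 and level in the other groups, as HLA-B was. Nearest to NLRC5 were PPP4C (0.054), HMBOX1 (0.055), AKAP8 (0.056), ATG2A (0.058) and TNKS1BP1 (0.058).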

How the data were processed

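The deposited table gives 1 FPKM value per gene and library, made by the authors. The unit is not named in its header and was taken from the values and from the presence of StringTie among the tools of the submitters' processing notes. Those notes also list CASAVA 1.8, Trimmomatic, FastQC, HISAT2, edgeR and GRCh38, without their roles. Low values were searched for single-read steps. At most 0.55% of low genes shared a ratio between libraries of a group, so no reads were recovered.

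Genes with at least 1 FPKM in at least 3 of 9 libraries (12586) were analysed as log2(FPKM + 1) in limma 3.58.1 (R 4.3.3) with all 3 groups in the fit, trended and robust moderation, two-sided p-values and Benjamini-Hochberg adjustment over all genes tested. A pseudocount of 1 understates changes of low genes. Sums and ratios were compared by exact permutation in SciPy 1.17.1. The method was tested on simulated data. The 9 genes and the lists were chosen with earlier results of these data known. From each pathway list the text names members among the up to 4 called genes with the smallest adjusted p per comparison, the 5 nearest profiles, and CD36. Further genes (TMEM127, SUSD6, HLA-F-AS1, AL669918.1, PSMB8-AS1, PSME1, IRF2, IRF8, IRF9, JAK1, TYK2, receptors at 0 and all marker genes) were named after their values were seen. The values of 2 list genes are not reported here. Alternatives were another pseudocount, no filter, quantile and trimmed-mean scaling, removal of mitochondrial genes, a replicate block, fits of 2 groups, plain moderation and leaving out each library.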

Additional observations from a re-analysis of the deposited data

How the results depend on the processing

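With 17 alternatives, the calls of HLA-B, HLA-C, HLA-E, B2M and TAPBP in NC1 against KO1, of HLA-B, TAP1 and TAPBP in NCO against NC1, and of HLA-C, HLA-E, B2M and TAP1 in NCO against KO1 held in all 17. Over the 8 genes tested and the 3 comparisons, 169 of 192 values under another setting and 193 of 216 with 1 library left out kept their direction and their side of the threshold. None of the values whose sign changed was called. With mitochondrial genes removed, which moved the median of all genes in NCO against KO1 from 0.08 to 0.19, the sign changed for TAP1 in NC1 against KO1 (0.06) and, in NCO against NC1, for HLA-E (0.03), B2M (0.01) and TAP2 (0.05). Quantile normalization changed it in NCO against NC1 for HLA-E (0.10) and B2M (0.05), and trimmed-mean scaling in NCO against KO1 for HLA-B (-0.04). With 1 library left out, differences ranged from -0.05 to 0.01 for TAP1 and from -0.00 to 0.15 for NLRC5 in NC1 against KO1. In NCO against NC1 they ranged from -0.13 to 0.04 for B2M, from -0.07 to 0.01 for TAP2 and from -0.03 to 0.07 for NLRC5. The cause of these changes was not tested.

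Without the filter, 29350 genes were tested and NCO against NC1 gave 781 calls in place of 1855, and 10 in place of 19 over the lists. By list, NCO against NC1 then gave 1 for loading and trimming, 4 for transcription control, and 0 for turnover and for pseudogenes. Also without the filter, turnover gave 2 in NC1 against KO1 and 3 in NCO against KO1, and pseudogenes 0 in NC1 against KO1. Quantile normalization gave 2 for turnover and 2 for class I-like genes in NCO against NC1. With mitochondrial genes removed, NC1 against KO1 gave 5 for the immunoproteasome and 3 for turnover, and NCO against NC1 gave 5 for loading and trimming and 3 for class I-like genes. Plain moderation gave 1 for loading and trimming and 0 for turnover in NCO against NC1, fits of 2 groups gave 0 for turnover there, and trimmed-mean scaling gave 5 for the immunoproteasome in NCO against KO1. With 1 library left out, calls in NCO against NC1 ranged from 908 (without NCO replicate 2) to 1708 over all genes, and stood at 1076 without NC1 replicate 2 and 1055 without NCO replicate 1. Over the lists it gave 12 (without NC1 replicate 1 or NCO replicate 2) to 18, with 1 to 3 for loading and trimming, 5 to 7 for transcription control, 0 to 1 for turnover, 0 to 2 for class I-like genes and 0 to 1 for pseudogenes. Turnover gave 1 to 6 in NC1 against KO1 and 3 to 6 in NCO against KO1, and pseudogenes 0 to 1 in NC1 against KO1.

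Same-numbered libraries did not deviate together (r = -0.101 to 0.0797, none of 9 pairs over 0.1). A replicate block gave 5618, 1389 and 6230 calls over all genes in NC1 against KO1, NCO against NC1 and NCO against KO1, in place of 5937, 1855 and 6568, and 5, 4 and 5 of the 8 genes. It also gave 0 for turnover in NCO against NC1. Since the depth is unknown, no detection limit can be set for HLA-F or other genes at 0.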
